A study of Mus musculus with 18 samples.

Results

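Thrombospondins, CCN proteins and other matricellular genes were followed through dorsal spinal tissue of mice with an inflamed or a saline-injected hindpaw. The 10 genes were Thbs1, Thbs2 and Thbs4 (thrombospondins), Nov, Cyr61 and Ctgf (the CCN genes now called Ccn3, Ccn1 and Ccn2), and Mgp, Postn, Tnc and Fn1. They were chosen by family, with the group values of these tables and their ratios of CFA to saline already known, out of 18380 gene names that could be followed in all 3 tables. Of those names, 15930 had a mean of at least 0.5 FPKM over the 6 groups (fragments counted on a transcript, divided by its length and by the size of the library), and all 10 genes were among them. The mice, labelled as C57BL/6, were 3 months old and had received rAAV in the parenchyma of the lumbar dorsal horn on both sides after laminectomy. The control rAAV encoded LacZ, and the others encoded either HDAC4 in its wild-type form (HDAC4 wt) or HDAC4 3SA, a mutant whose export signals cannot be phosphorylated and which stays in the nucleus. Complete Freund's adjuvant (CFA, an emulsion that causes lasting inflammation of the paw) or saline was injected in the hindpaw 24 h before the tissue was taken. Each of the 6 groups (3 vectors, each with saline or CFA) held 3 mice, 18 in all. All mice thus carried a vector and had spinal surgery, transgenes were delivered to the dorsal horn only, and the RNA came from the whole dorsal tissue, neurons and other cells together. The promoter that drives the transgenes is not given in the sources used here.

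Matricellular proteins are secreted into the extracellular matrix without being one of its load-bearing fibres. They bind matrix, growth factors and cell surface receptors, and so change how cells attach, migrate and respond to signals. In the nervous system, thrombospondins from astrocytes promote synapse formation through the calcium channel subunit encoded by Cacna2d1, the target of gabapentin, and thrombospondin 1 can release TGF-beta from its latent complex. Genes such as Cyr61 and Ctgf respond fast to growth factors and mechanical load, while Tnc, Postn and Fn1 are known from wounds and remodelling tissue.

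The deposited tables hold 1 pooled FPKM value per group, with no value per mouse, no counts and no depth per library. No spread between mice can therefore be computed for any value here, and no test was run: each ratio is a description of 2 pooled values. The authors' own comparisons, which the tables also hold, were not used. A ratio of at least 1.5, or its inverse, was used to count genes, beside the share of all gene names past the same ratio. Each vector had a normalization run of its own. The median ratio between saline groups over names above 5 FPKM was 1.01 for both HDAC4 vectors over LacZ. A median near 1 cannot show that levels are comparable between runs, since scaling of the libraries can bring it there. The lower and upper quartiles of these log2 ratios were -0.14 and 0.19 for HDAC4 wt and -0.10 and 0.14 for HDAC4 3SA. Between the HDAC4 vectors after saline they were -0.08 and 0.07. For CFA over saline they were -0.06 and 0.08 with LacZ, -0.07 and 0.09 with HDAC4 wt, and -0.10 and 0.13 with HDAC4 3SA. Hdac4 itself, at 7.41 FPKM in saline-treated LacZ mice, had 10.1 FPKM with HDAC4 wt and 8.86 FPKM with HDAC4 3SA. Summed over the 6 groups in turn, 8 neuronal genes reached 1138 to 1902 FPKM, 7 genes of dorsal horn neurons 169 to 269 FPKM and 5 genes of motor neurons 17.4 to 70.7 FPKM. The dorsal horn sum was led by Penk, at 111 to 179 FPKM. Sums over different genes do not measure amounts of a cell type, so they cannot check the tissue label. In bulk tissue, a change in the number of cells of a type and a change in RNA per cell cannot be told apart.

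Over the whole set, more genes were higher than lower after CFA in each vector. They were 9 of 10 with LacZ, 8 with HDAC4 wt and 8 with HDAC4 3SA, beside 53.0%, 51.1% and 52.9% of all names, and 6 of them (Thbs1, Thbs2, Cyr61, Ctgf, Mgp and Fn1) were higher in all 3 vectors. In LacZ mice 4 of 10 genes (Thbs1, Nov, Mgp and Fn1) were at least 1.5-fold higher after CFA, beside 4.27% of all names, and 0 were 1.5-fold lower, beside 2.08%. In HDAC4 wt mice the 4 genes at least 1.5-fold higher were again Thbs1, Nov, Mgp and Fn1, beside 3.95% of all names, and 0 were lower, beside 2.64%. In HDAC4 3SA mice the 4 were Cyr61, Mgp, Tnc and Fn1, beside 7.74% of all names, and 1 gene, Nov, was 1.5-fold lower, beside 2.51%. The median log2 ratio of the 10 genes was 0.31 with LacZ, 0.48 with HDAC4 wt and 0.38 with HDAC4 3SA, beside 0.01, 0.00 and 0.01 over all names read. As the genes were chosen with these ratios known, the counts describe the set and nothing is read from their excess over the background. Mgp and Fn1 were past 1.5-fold upwards in all 3 vectors, Thbs1 and Nov upwards in LacZ and HDAC4 wt mice alone (Nov being past it downwards with HDAC4 3SA), Cyr61 and Tnc in HDAC4 3SA mice alone, and Thbs2, Thbs4, Ctgf and Postn in none.

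**Figure D1:**
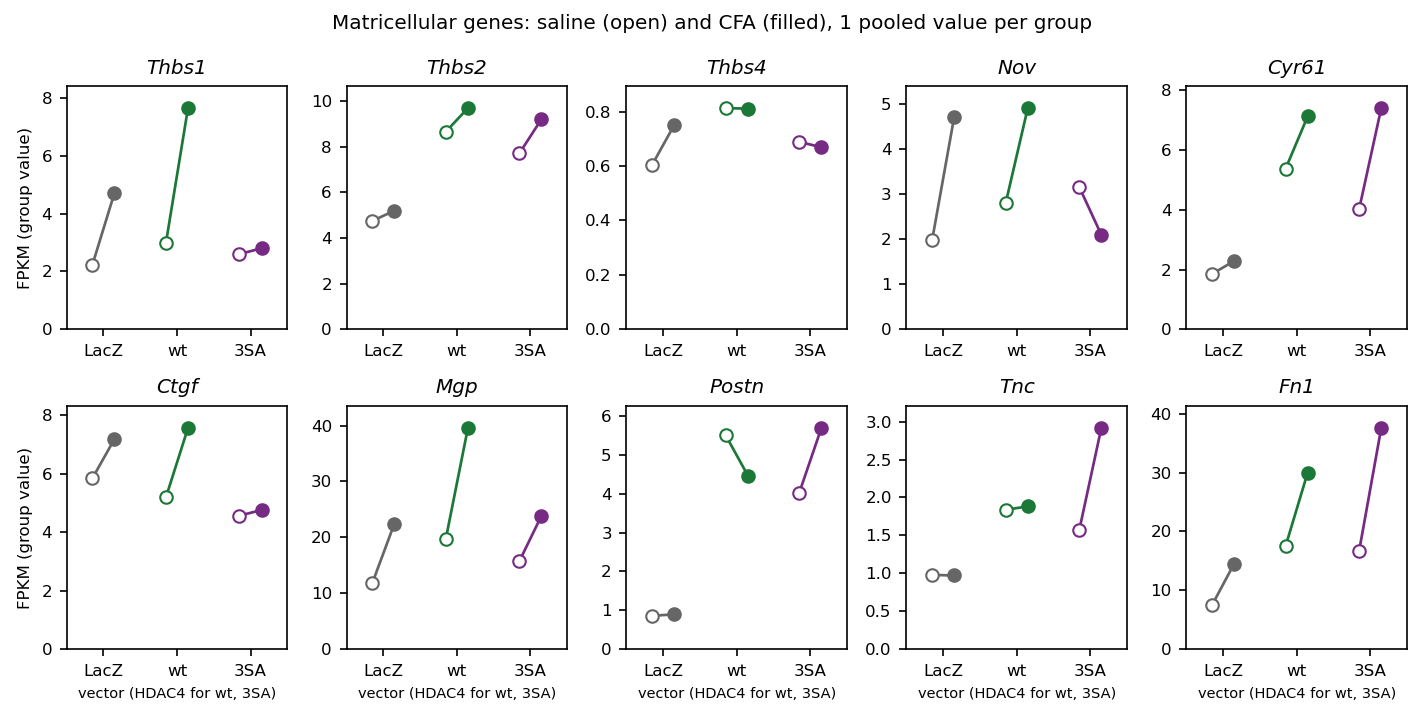
Level of each of the 10 genes in FPKM (vertical axis from 0, 1 panel per gene) in the LacZ, HDAC4 wt and HDAC4 3SA vectors, with the saline group as an open and the CFA group as a filled circle; each circle is 1 pooled group value, so there are no error bars. The lines of Thbs1 and Nov are steep with LacZ and HDAC4 wt, while that of Thbs1 is nearly flat with HDAC4 3SA (2.60 to 2.80 FPKM) and that of Nov points down (3.16 to 2.10 FPKM).

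Thbs1 encodes thrombospondin 1, a secreted trimeric glycoprotein that binds CD36, CD47 and integrins and that inhibits vessel growth. Its locus lies on chromosome 2 of GRCm38 from 118111864 to 118127267 on the plus strand and covers the 22 exons of the annotated gene. With LacZ, the Thbs1 value was 2.22 FPKM in the saline and 4.71 FPKM in the CFA group. In HDAC4 wt mice it had 2.98 and 7.65 FPKM, and with HDAC4 3SA 2.60 and 2.80 FPKM. The saline values thus lay close together in the 3 vectors, and the CFA value of HDAC4 3SA mice lay at the level of the saline groups. The ratio of CFA to saline was 2.12 with LacZ, 2.56 with HDAC4 wt and 1.08 with HDAC4 3SA, and 97.8%, 98.8% and 66.2% of all names read had a lower ratio in the same tables.

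Thbs2, on chromosome 17 from 14665492 to 14694261 on the minus strand, encodes the closest relative of thrombospondin 1, with the same domain order. It was at a higher level than Thbs1 in each group and did not share its response. Thbs2 had 4.74 and 5.19 FPKM after saline and CFA in LacZ mice, 8.65 and 9.68 FPKM with HDAC4 wt, and 7.70 and 9.20 FPKM with HDAC4 3SA. Its ratios of CFA to saline, 1.09, 1.12 and 1.19, stayed under 1.5 in every vector, while both HDAC4 vectors had higher levels than LacZ after either injection. Thbs4, on chromosome 13 from 92751587 to 92794808 on the minus strand, encodes a pentameric thrombospondin of tendon, heart and nervous tissue that lacks the type 1 repeats of thrombospondins 1 and 2. It was the gene with the lowest level of the set in each group, between 0.605 FPKM (LacZ, saline) and 0.813 FPKM (HDAC4 wt, saline), and its ratios were 1.24, 0.998 and 0.972. At levels below 1 FPKM and without counts, differences of this size cannot be judged. Of the family members outside the set, Thbs3 lay between 3.68 and 7.15 FPKM with no ratio past 1.5. Comp, the cartilage thrombospondin, had 0.278 and 3.85 FPKM after saline and CFA with HDAC4 wt, 0.224 and 0.446 FPKM with LacZ, and had 0.262 and 0.255 FPKM in HDAC4 3SA mice; it is named because of these values.

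The CCN genes encode small cysteine-rich secreted proteins that bind integrins and heparan sulfate. Nov (Ccn3), on chromosome 15 from 54745625 to 54754391 on the plus strand with 5 exons, is the member often described as opposing Ctgf. With LacZ its value was 1.98 FPKM in the saline and 4.72 FPKM in the CFA group, and with HDAC4 wt 2.80 and 4.91 FPKM. In HDAC4 3SA mice the order was turned, with 3.16 FPKM after saline and 2.10 FPKM after CFA. The ratios were 2.38, 1.75 and 0.664, so Nov was the single gene of the set that lay past 1.5-fold upwards in one vector and downwards in another. The downward ratio is close to the limit and is 0.674 with 0.1 FPKM added to both groups, inside it. A further short row of the tables carries the name Nov, on chromosome 15 from 54755875 to 54756454, just beyond the gene; it lay between 0.0709 and 0.351 FPKM, also with the higher value after CFA in LacZ and HDAC4 wt mice and the lower in HDAC4 3SA mice.

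Cyr61 (Ccn1), on chromosome 3 from 145646973 to 145649984 on the minus strand, is an immediate early gene for a matrix protein that promotes adhesion and vessel growth. It had 1.85 and 2.29 FPKM after saline and CFA in LacZ mice, 5.38 and 7.13 FPKM with HDAC4 wt, and 4.03 and 7.41 FPKM with HDAC4 3SA. Both LacZ groups thus lay below each HDAC4 group. The ratios of CFA to saline were 1.23, 1.33 and 1.84, with HDAC4 3SA alone past 1.5. Ctgf (Ccn2), on chromosome 10 from 24595124 to 24598683 on the plus strand, encodes a profibrotic growth factor partner that TGF-beta induces. It had 5.84 and 7.19 FPKM in LacZ mice, 5.19 and 7.57 FPKM with HDAC4 wt, and 4.57 and 4.76 FPKM with HDAC4 3SA. Its ratios, 1.23, 1.46 and 1.04, were all under 1.5, and its order over the vectors (HDAC4 wt, LacZ, HDAC4 3SA) was that of Thbs1, not that of Cyr61. The CCN genes outside the set are the Wisp genes. Wisp2 (Ccn5) was past 1.5-fold in all 3 vectors, from 0.300 to 0.811 FPKM with LacZ, from 3.29 to 7.72 FPKM with HDAC4 wt and from 3.26 to 7.98 FPKM with HDAC4 3SA. Wisp1 (Ccn4) was past it in none, with ratios of 1.28, 1.14 and 0.760 at levels of 0.524 to 0.730 FPKM, and Wisp3 was not read here.

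Mgp encodes matrix Gla protein, a vitamin K dependent inhibitor of calcification made by vascular smooth muscle and fibroblasts. Its locus lies on chromosome 6 from 136872409 to 136875898 on the minus strand and has 4 exons. Mgp had 11.8 and 22.4 FPKM after saline and CFA in LacZ mice, 19.7 and 39.6 FPKM with HDAC4 wt, and 15.8 and 23.9 FPKM with HDAC4 3SA. The ratio was 1.90 with LacZ and 2.0 with HDAC4 wt. With HDAC4 3SA it was 1.51, just past the limit, and 1.48 with 1 FPKM added to both groups. Fn1 encodes fibronectin, a fibril-forming glycoprotein with an RGD site for integrins, and has 46 exons in its longest annotated transcript. Its locus lies on chromosome 1 from 71585516 to 71653048 on the minus strand. Fn1 had 7.47 and 14.5 FPKM in LacZ mice, 17.5 and 30.0 FPKM with HDAC4 wt, and 16.7 and 37.6 FPKM with HDAC4 3SA. It was past 1.5-fold in every vector (ratios of 1.94, 1.71 and 2.25), and the saline value of either HDAC4 vector was above the CFA value of LacZ mice. Together, Mgp and Fn1 were the genes of the set with the highest level in each group.

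Tnc encodes tenascin C, a hexameric glycoprotein of developing and injured tissue that binds integrins and Toll-like receptor signalling partners. Its locus lies on chromosome 4 from 63959785 to 64047013 on the minus strand. Tnc had 0.979 and 0.971 FPKM after saline and CFA in LacZ mice, 1.84 and 1.88 FPKM with HDAC4 wt, and 1.57 and 2.92 FPKM with HDAC4 3SA. Only the CFA group of HDAC4 3SA mice thus stood apart from its saline group, with a ratio of 1.86, beside 0.992 and 1.02 in the other vectors. Postn encodes periostin, a fibroblast protein that cross-links collagen and tenascin C, on chromosome 3 from 54360978 to 54391044 on the plus strand. It had 0.857 and 0.895 FPKM in LacZ mice, 5.50 and 4.47 FPKM with HDAC4 wt, and 4.03 and 5.69 FPKM with HDAC4 3SA. Its ratios of CFA to saline (1.04, 0.812 and 1.41) were under 1.5 in each direction, and its values separated the vectors far more than the injections.

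**Figure D2:**
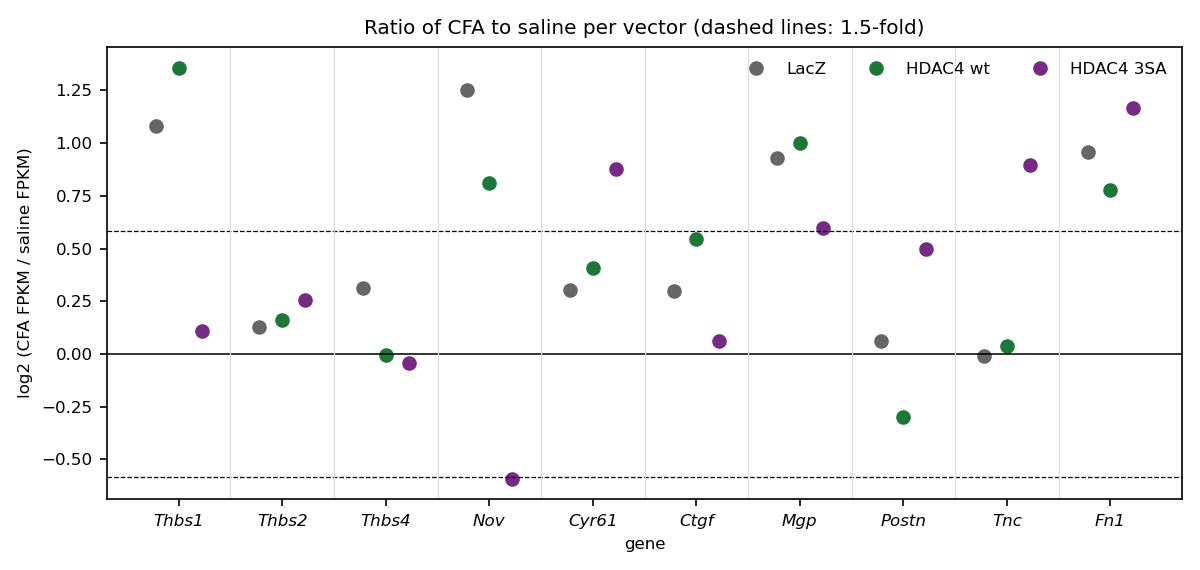
Log2 ratio of the CFA to the saline value (vertical axis) for each gene (horizontal axis) in LacZ (grey), HDAC4 wt (green) and HDAC4 3SA mice (purple), each point being 1 ratio of 2 pooled values; dashed lines mark 1.5-fold. The purple points of Thbs1 (0.11) and Nov (-0.59) lie well below the other vectors of the same gene, and those of Tnc (0.89) and Cyr61 (0.88) above them.

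Promoter sequences were given for 5 of the 10 genes (Thbs2, Thbs4, Cyr61, Postn and Tnc), in 7 windows of 300 bases, from 250 before to 50 after the start site. They are from RefSeq on GRCm38.p6 and read along the gene's strand. They are shown for Cyr61 and Tnc, the genes past 1.5-fold with HDAC4 3SA alone, and for Thbs2, which was not past it in any vector. Letters in capitals match 1 of the motifs searched on both strands: GGAATG (TEAD factors), TGANTCA (AP-1), the CArG box (SRF), the MEF2 consensus (MEF2 factors are known partners of HDAC4) and TATAAA. Cyr61 is on the minus strand at chr3:145649936-145650235, Tnc at chr4:64046966-64047265 and Thbs2 at chr17:14694213-14694512, both also on the minus strand.
Cyr61: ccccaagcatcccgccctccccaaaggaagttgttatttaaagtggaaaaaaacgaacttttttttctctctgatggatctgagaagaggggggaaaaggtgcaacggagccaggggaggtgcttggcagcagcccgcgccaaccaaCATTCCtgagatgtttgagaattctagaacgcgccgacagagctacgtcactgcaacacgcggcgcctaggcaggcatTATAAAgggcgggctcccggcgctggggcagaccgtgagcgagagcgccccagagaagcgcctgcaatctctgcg
Tnc: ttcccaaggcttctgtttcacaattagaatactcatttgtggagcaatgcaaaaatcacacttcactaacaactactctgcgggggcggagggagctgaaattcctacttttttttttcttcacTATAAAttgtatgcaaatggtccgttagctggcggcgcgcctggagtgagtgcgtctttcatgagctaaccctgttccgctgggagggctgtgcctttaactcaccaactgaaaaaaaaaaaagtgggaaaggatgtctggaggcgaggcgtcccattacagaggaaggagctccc
Thbs2: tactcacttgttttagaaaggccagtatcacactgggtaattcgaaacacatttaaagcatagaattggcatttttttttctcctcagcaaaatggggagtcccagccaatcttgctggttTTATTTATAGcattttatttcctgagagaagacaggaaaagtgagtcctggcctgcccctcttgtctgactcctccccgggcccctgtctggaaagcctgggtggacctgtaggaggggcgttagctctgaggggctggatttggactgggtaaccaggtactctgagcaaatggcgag
The Cyr61 window holds the TEAD motif on the opposite strand, starting at -103 from the start site, and TATAAA at -25. The Tnc window holds TATAAA at -126, and an overlapping window from a further Tnc start site holds the same letters at -205. The Thbs2 window holds a match to the MEF2 consensus at -129, whose letters read as a match on either strand and which overlaps TATAAA on the opposite strand. In windows not printed, Thbs4 holds the TEAD motif at -197 and at -192, and 1 of the Postn windows holds TATAAA at -26. Over all 32851 windows of the same length, 14.7% hold the TEAD motif, 7.81% the AP-1 motif, 1.63% a CArG box, 3.19% the MEF2 consensus and 13.6% TATAAA. No window of these 5 genes holds the AP-1 motif or a CArG box, which says only that these letters are not in these windows.

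The comparison of vectors asks whether the response to CFA differs when HDAC4 is kept in the nucleus. Against LacZ, HDAC4 3SA mice had a log2 ratio of CFA to saline that was lower by log2 of 1.5 or more for 2 of 10 genes, Nov (-1.84) and Thbs1 (-0.98), beside 4.86% of all names. It was higher by as much for 1 gene, Tnc (0.91), beside 6.20% of all names, and Cyr61 (0.57) lay just inside the limit of 0.58. For HDAC4 wt, the log2 ratio was lower than in LacZ mice by that much for 0 genes, beside 5.20% of all names, and higher for 0 genes, beside 4.03%. The largest difference of the set with HDAC4 wt was -0.44, for Nov. Both differences use the same LacZ groups. Set side by side with HDAC4 wt in place of LacZ, the log2 ratio in HDAC4 3SA mice differed by -1.40 for Nov, by -1.25 for Thbs1, by 0.86 for Tnc and by 0.80 for Postn. No spread between mice stands behind any of these differences, so whether they exceed it was not tested.

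**Figure D3:**
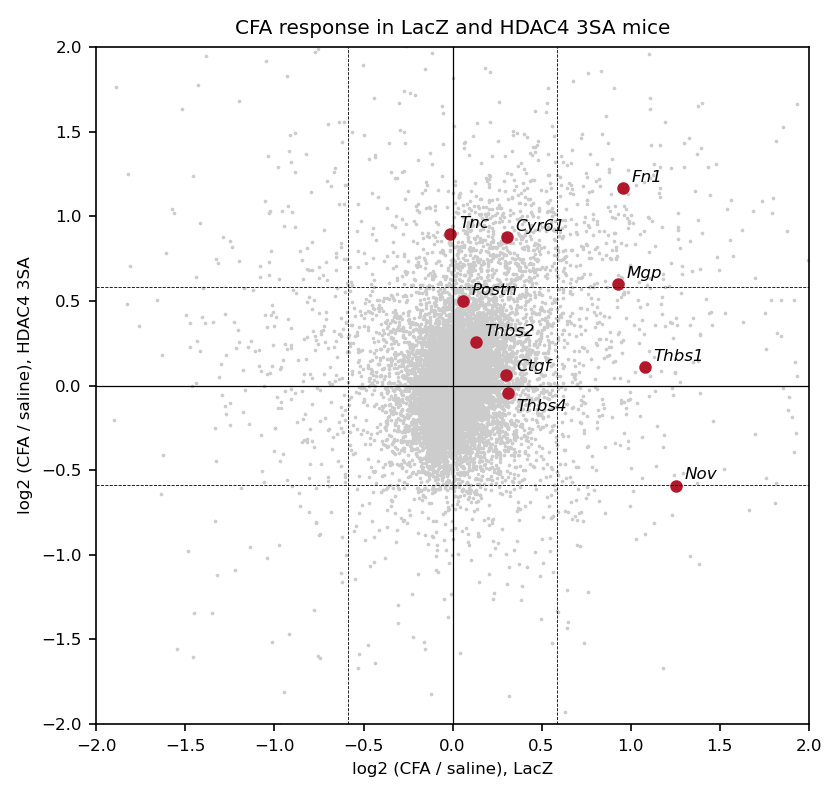
Log2 ratio of CFA to saline in LacZ mice (horizontal axis) against that in HDAC4 3SA mice (vertical axis) for 15651 gene names with at least 0.5 FPKM on average (grey) and the 10 genes (red, named); dashed lines mark 1.5-fold, and 279 names outside the axes or without a finite ratio are not drawn. Fn1 and Mgp lie past 1.5-fold on both axes, Thbs1 and Nov far to the right but at 0.11 and -0.59 on the vertical axis, and Tnc and Cyr61 high on the vertical axis alone.

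Levels after saline alone already differed between the vectors. In HDAC4 wt mice 6 of 10 genes (Thbs2, Cyr61, Mgp, Postn, Tnc and Fn1) were at least 1.5-fold above LacZ, beside 14.1% of all names, and 0 were 1.5-fold below, beside 4.49%. In HDAC4 3SA mice 6 of 10 (Thbs2, Nov, Cyr61, Postn, Tnc and Fn1) were at least 1.5-fold above LacZ, beside 11.5% of all names, and 0 below, beside 3.32%. Postn stood farthest from LacZ, 6.42-fold with HDAC4 wt and 4.70-fold with HDAC4 3SA. Next were Cyr61 (2.91-fold and 2.18-fold) and Fn1 (2.34-fold and 2.24-fold), Cyr61 being ahead with HDAC4 wt and Fn1 with HDAC4 3SA. Ctgf was the single gene with a lower value in both HDAC4 vectors, at 0.889-fold and 0.782-fold. Between the HDAC4 vectors, 0 of 10 genes were 1.5-fold lower with HDAC4 3SA, beside 4.01% of all names, and 0 were 1.5-fold higher, beside 2.32%. These ratios set levels from separate normalization runs side by side. Scaling each pair of groups to its median of names above 5 FPKM left them nearly as they were, with 6.33-fold and 4.65-fold for Postn. Each vector has its own run and its own mice, so vector, run and tissue sampling cannot be told apart here. Skeletal muscle markers, for example, were 0.390-fold and 3.08-fold LacZ after saline, as given below with the other lists.

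**Figure D4:**
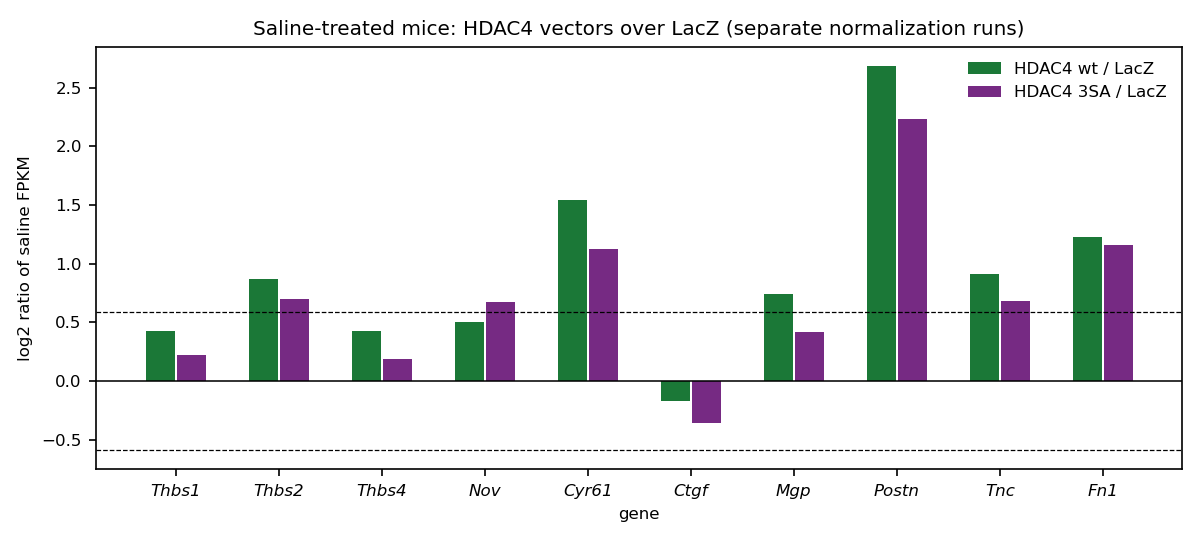
Log2 ratio of the saline value in HDAC4 wt (green) or HDAC4 3SA mice (purple) over that in LacZ mice for each gene; bars start at 0, each is a ratio of 2 pooled values, and dashed lines mark 1.5-fold. Postn, Cyr61 and Fn1 have the longest bars in both vectors, and Ctgf is the one gene below 0.

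After CFA the order of the vectors depended on the gene. Thbs1 after CFA was 1.62-fold the LacZ value with HDAC4 wt and 0.595-fold with HDAC4 3SA, and Nov was 1.04-fold and 0.445-fold. Ctgf was 1.05-fold and 0.663-fold. For these genes HDAC4 3SA mice thus had the lowest CFA value of the 3 vectors. Postn (5.00-fold and 6.37-fold), Cyr61 (3.12-fold and 3.24-fold), Fn1 (2.07-fold and 2.59-fold) and Tnc (1.94-fold and 3.01-fold) had their lowest CFA value with LacZ and their highest with HDAC4 3SA.

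Markers of other cells moved with these values. The summed level of 8 microglial markers was 177 FPKM in saline-treated LacZ mice, 956 FPKM with HDAC4 wt and 722 FPKM with HDAC4 3SA, and 202, 1211 and 1339 FPKM after CFA. It was led by C1qa, from 37.5 FPKM (LacZ, saline) to 500.01 FPKM (HDAC4 3SA, CFA), while P2ry12, a marker of resting microglia, lay between 9.30 and 14.5 FPKM. The summed level of 6 markers of macrophages and monocytes was 14.8-fold (HDAC4 wt) and 9.68-fold (HDAC4 3SA) that of LacZ after saline, and the ratios of CFA to saline of the sum were 1.38, 1.31 and 2.40. It was led by Lyz2, at 20.6 FPKM (LacZ, saline) to 547 FPKM (HDAC4 3SA, CFA), while Mrc1 and Pf4, markers of macrophages at vessels and meninges, lay at 1.66 to 3.27 FPKM and 1.98 to 3.49 FPKM. With HDAC4 3SA, Lyz2 (2.57-fold) was the 1 of 6 past 1.5-fold after CFA, and the other 5 had ratios of 0.885 to 1.48. Past 1.5-fold after CFA in HDAC4 3SA mice were 5 of the 8 microglial markers, beside 7.74% of all names. Both lists thus moved between vectors in the direction of Postn, Cyr61, Fn1 and Tnc, and none of their markers was listed at 0. Leptomeningeal fibroblast markers (10 of 11 summed) lay 1.36-fold and 1.22-fold above LacZ after saline, and their ratios of CFA to saline were 1.35, 1.03 and 1.05. The sum was led by Dcn and Col1a2, and 2, 1 and 0 of the 9 genes read were past 1.5-fold, beside 4.27%, 3.95% and 7.74% of all names. Crabp2 (3.79, 1.78 and 1.1) had the lowest ratio with HDAC4 3SA, as Thbs1 and Nov did, and so did Lum, Col1a1, Col1a2 and Pdgfra. The same held for Slc47a1, a gene below the minimum mean (0.0370 and 1.26 FPKM with LacZ, 0.0407 and 1.3 FPKM with HDAC4 wt, 0.0442 and 0.121 FPKM with HDAC4 3SA). Dcn, Slc6a13, Foxc1 and Aldh1a2 had their lowest ratio with HDAC4 wt, as did the sum, so the list had no common order. Schwann cell markers (5 of 6 summed) had ratios of 1.55 with LacZ, 0.970 with HDAC4 wt and 0.602 with HDAC4 3SA. The lowest ratio was with HDAC4 3SA, as for Thbs1 and Nov, but unlike these genes the sum was not higher after CFA with HDAC4 wt. Neutrophil, neuronal and dorsal horn neuron markers, given below, also had their lowest ratio with HDAC4 3SA. The part of these cells in the values of the 10 genes was not tested.

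The remaining marker lists also differed between vectors after saline. Against LacZ, neutrophil markers (6 of 7 summed) were 3.73-fold with HDAC4 wt and 5.56-fold with HDAC4 3SA, in the direction of Postn, Cyr61, Fn1 and Tnc. The summed astrocyte markers were 1.45-fold in both, through Gfap (389 FPKM with LacZ, 807 and 805 FPKM with the HDAC4 vectors), Aqp4 and Aldh1l1, while the other 4 of 7 (Gja1, Slc1a3, Slc1a2 and Fgfr3) had lower values than with LacZ. Of the dorsal root ganglion neuron list, the values are in effect those of Avil alone (0.933, 3.16 and 6.28 FPKM after saline with LacZ, HDAC4 wt and HDAC4 3SA), since Trpv1 lay between 0 and 0.421 FPKM and the other 3 genes were not read here. Above LacZ in both were also endothelial markers (1.26-fold and 1.23-fold), pericyte and smooth muscle markers (1.16-fold and 1.13-fold), and red blood cell markers (1.32-fold and 2.46-fold). Neuronal markers (0.716-fold and 0.761-fold) and motor neuron markers (0.456-fold and 0.747-fold) were lower in both. Skeletal muscle markers (0.390-fold and 3.08-fold) and those of dorsal horn neurons (1.12-fold and 0.951-fold) differed in direction. The part of these cells, too, was not tested. Pericyte and smooth muscle markers (7 of 9 summed) had ratios of CFA to saline of 0.957, 1.09 and 1.12, and endothelial markers (7 of 8) of 1.02, 1.15 and 1.21. Astrocyte markers had 0.997, 1.20 and 1.24, neuronal markers 0.948, 0.896 and 0.787, and dorsal horn neuron markers 1.25, 0.886 and 0.828. Motor neuron markers had 1.27, 2.29 and 2.48, although dorsal tissue was taken. The order of the vectors was that of Cyr61, as it was for pericyte and smooth muscle, endothelial, astrocyte and microglial markers. For skeletal muscle the ratios were 2.03, 0.374 and 0.837, for neutrophils 10.4, 0.700 and 0.628, for red blood cells (2 of 5 summed) 1.84, 1.09 and 1.14, and for Avil 0.915, 3.15 and 1.1.

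**Figure D5:**
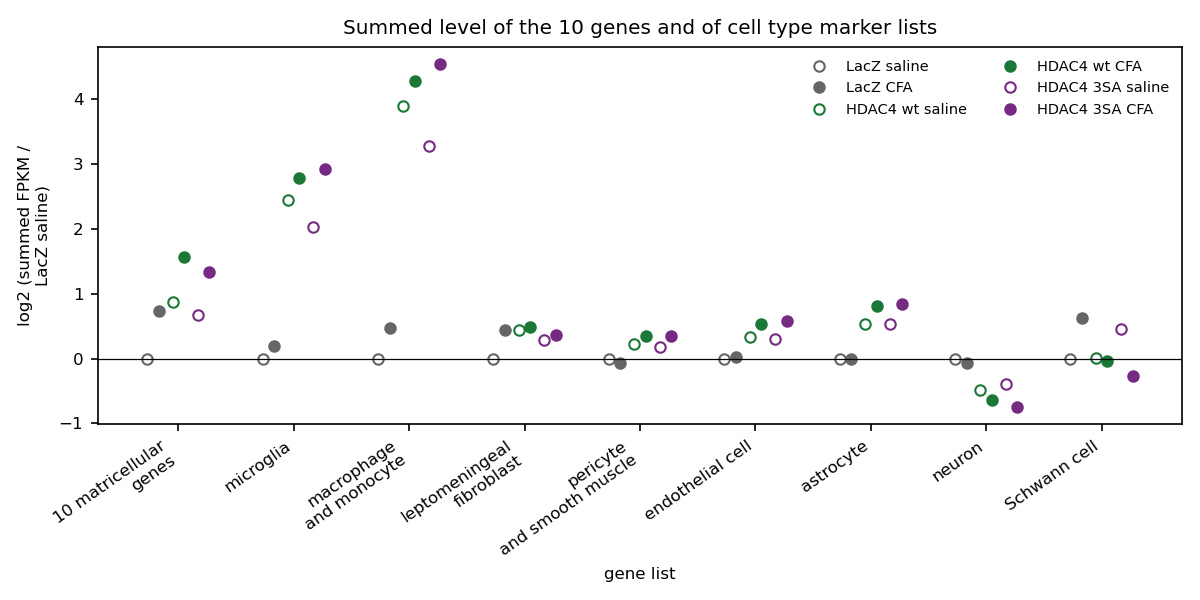
Log2 of the summed FPKM of the 10 genes and of 8 cell type marker lists over the sum in saline-treated LacZ mice, with saline as open and CFA as filled circles and the vector by colour; each circle is 1 sum of pooled values. The microglial and the macrophage and monocyte lists lie far above 0 in all 4 HDAC4 groups (722 to 1339 FPKM for the microglial list, beside 177 and 202 FPKM with LacZ), while neuronal markers lie below 0 there.

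Related genes gave the setting. Of 29 other matricellular genes, 25 could be read at 0.5 FPKM or more, and 3, 3 and 4 of them were at least 1.5-fold higher after CFA in LacZ, HDAC4 wt and HDAC4 3SA mice, with 0 lower in each. Over all names, 4.27%, 3.95% and 7.74% were higher and 2.08%, 2.64% and 2.51% lower. The 3 in LacZ mice were Wisp2, Tgfbi (1.55-fold) and Comp, and those in HDAC4 wt mice Wisp2, Comp and Spock1, the last with 0.174 and 0.758 FPKM and named because of these values. In HDAC4 3SA mice they were Wisp2, Tgfbi (1.58-fold), Spp1 and Lgals3. Spp1 (osteopontin), which microglia and macrophages make, went from 121 to 330 FPKM there (2.72-fold), and Lgals3 (galectin 3) from 24.2 to 63.3 FPKM (2.61-fold). The most abundant relatives, Sparcl1 (908 to 1255 FPKM) and Sparc (376 to 435 FPKM), both made by astrocytes and vessels, had no ratio past 1.5. The median log2 ratio of this list was 0.26, 0.18 and 0.03 in the 3 vectors. Of 26 receptors and partners, 24 were read, with 0 past 1.5-fold in LacZ and HDAC4 wt mice. In HDAC4 3SA mice 5 were higher, the integrin genes Itgb2 (2.15-fold), Itga5 (1.88-fold), Itgam (1.84-fold) and Itgb5 (1.61-fold) and the syndecan gene Sdc1 (1.56-fold), beside 7.74% of all names. One was lower there: Cacna2d1, the neuronal thrombospondin receptor, which went from 17.8 to 11.8 FPKM (0.665-fold), beside 18.4 and 17.8 FPKM with LacZ and 19.7 and 16.4 FPKM with HDAC4 wt (0.829-fold). It was 1 of 24, beside 2.51% of all names, and 7 of the 8 neuronal markers also had ratios below 1 with HDAC4 3SA, among them Gad1 (0.701), Syt1 (0.717) and Slc17a6 (0.747). The list's medians were 0.08, 0.18 and 0.17 on the log2 scale, and Cd36, a thrombospondin receptor of vessels and macrophages, is listed at 0 in both LacZ groups.

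Of 26 genes of the TGF-beta axis, 24 were read, with medians of 0.11, 0.15 and 0.19 on the log2 scale. Bmp4 (1.52-fold) and Bmp7 (1.55-fold) were past 1.5-fold in LacZ mice and 0 genes in HDAC4 wt mice, beside 4.27% and 3.95% of all names. In HDAC4 3SA mice Tgfb1, which encodes the ligand (1.74-fold), and Tgfbr1, which encodes a receptor subunit (1.57-fold), were past it, beside 7.74% of all names. Of 25 genes known to depend on TEAD factors or encoding parts of that pathway, 24 were read. In LacZ mice Tead4 alone was past 1.5-fold (0.437 to 0.701 FPKM, named because of these values). In HDAC4 wt mice Foxf2 was higher (2.02-fold) and Tead1 lower (0.629-fold), and in HDAC4 3SA mice Myof (1.98-fold) and Axl (1.64-fold) were higher. These counts of 1 or 2 of 24 genes lie near the shares over all names (4.27%, 3.95% and 7.74% higher, and 2.64% lower with HDAC4 wt) and say nothing particular of the list. The list's medians were 0.14, 0.08 and 0.10 on the log2 scale, beside 0.88 for Cyr61 in HDAC4 3SA mice.

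Among 14079 names with at least 1 FPKM on average, those whose 3 log2 ratios lay nearest to Thbs1, Nov and Fn1 were sought. Nearest to Fn1 were Isg20 (distance 0.20 on the log2 scale), Fam26f (0.21) and Slfn2 (0.23), with ratios of 1.86, 1.88 and 1.98 with LacZ, 1.61, 1.60 and 1.47 with HDAC4 wt and 2.0, 1.99 and 2.19 with HDAC4 3SA. Like Fn1, all 3 had higher saline levels in both HDAC4 vectors than in LacZ mice, for example 0.810 FPKM with LacZ, 10.4 FPKM with HDAC4 wt and 7.17 FPKM with HDAC4 3SA for Slfn2. With LacZ, Fam26f had only 0.116 and 0.218 FPKM after saline and CFA, so its ratio there cannot be judged without counts. Nearest to Nov were Pdzph1 (0.27; ratios of 2.19, 1.89 and 0.571), Gm37899 (0.43) and Mgl2 (0.52). Thbs1 had no close neighbour: the nearest, A630010A05Rik, 4731419I09Rik and 4921518K17Rik, lay at distances of 0.53, 0.54 and 0.55.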

How the data were processed

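RNA was sequenced from dorsal spinal tissue of 18 mice in 6 groups. According to the study's methods, the authors made strand-specific poly-A libraries, mapped single-end reads with Bowtie and TopHat to GRCm38 with Ensembl genes, and ran Cufflinks, Cuffmerge and Cuffdiff. The deposited FPKM values are Cuffdiff's, 1 per group of 3 mice, with 1 table of 34579 loci per vector. The study's methods give a minimum number of reads, but the tables hold no depth per library, and how the libraries were scaled is not given in the sources used here. The tables also hold the authors' own comparisons (status, fold change, statistic, p and q), which were not used.

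Columns were assigned to groups by the names in each table. Coordinates are those of the tables with the start moved to 1-based, and strand and exons are from GENCODE M21, on the same build. Loci without a gene name (8609), with places that do not overlap between tables (386) or with names that differ (36) were left out, and the row with the highest mean was kept for a name. Ratios were taken without an added constant, and a name at 0 in both groups has none. The design had foreseen limma in case the tables held values per mouse; they do not, so no test was run, and the low FPKM values showed no common step from which reads could be recovered. The call rule was tested on simulated data. Python 3.11.15, pandas 2.3.3, numpy 2.4.6 and matplotlib 3.10.9 were used.

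The 10 genes, the 4 lists of related genes (106 genes) and the 15 marker lists (105 genes) were written with earlier results of these data known. The oligodendrocyte list and 1 gene of the TGF-beta list are not reported here. Named from the related lists were genes past 1.5-fold in a vector whose mean was 1 FPKM or more, at most 6 per list, and others where stated; for Thbs1, Nov and Fn1 the 3 nearest names by Euclidean distance. Alternatives were a 2-fold limit, 0.1 or 1 FPKM added, centring on the median of names above 5 FPKM, the sum of all rows of a name, and other minimum levels.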

Additional observations from a re-analysis of the deposited data

Results flagged for a closer look

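Nov lay past 1.5-fold in opposite directions, with a ratio of CFA to saline of 2.38 in LacZ mice and 0.664 in HDAC4 3SA mice. The difference was not tested, since each group has 1 pooled value. In HDAC4 wt mice the ratio was 1.75. The downward ratio was 0.674 with 0.1 FPKM and 0.744 with 1 FPKM added to both groups, short of the limit in each case but in the same direction.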

How the results depend on the processing

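With a 2-fold in place of a 1.5-fold limit, the count of genes past it was 2 with LacZ, 2 with HDAC4 wt and 1 with HDAC4 3SA, 3 for the saline groups of HDAC4 wt and 3 for those of HDAC4 3SA over LacZ, and 1 for log2 ratios lower with HDAC4 3SA than with LacZ. The count with HDAC4 3SA was 3 when 1 FPKM was added to each value. These 7 recomputed counts moved by over 1.5 times, and 51 other recomputed counts and medians did not or, for medians, moved by no more than 0.1 on the log2 scale. Of the log2 ratios of single genes, 112 moved by no more than 0.1 and 8 by more, and none past 1.5-fold changed sign under these alternatives. No paired analysis was possible because the tables hold 1 pooled value per group, and for the same reason the planned fits without single replicates were not run. With no value per mouse, neither the spread between mice nor the weight of a single mouse in a group value is known, and the tables do not give the reads behind each value.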

Other observations

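Ratios of 2 genes within the same group do not depend on how the tables were scaled; the pairs below were chosen after the values had been seen. The level of Thbs1 per unit of Thbs2 was 0.469 after saline and 0.908 after CFA in LacZ mice, 0.345 and 0.791 in HDAC4 wt mice, and 0.338 and 0.305 in HDAC4 3SA mice. Nov per unit of Cyr61 was 1.07 and 2.06 in LacZ mice, 0.521 and 0.689 in HDAC4 wt mice, and 0.785 and 0.283 in HDAC4 3SA mice. Ctgf per unit of Cyr61 was 3.16 and 3.14 in LacZ mice, 0.965 and 1.06 in HDAC4 wt mice and 1.13 and 0.643 in HDAC4 3SA mice, so Ctgf led Cyr61 by far in LacZ mice alone. Tnc per unit of Thbs1 was lower after CFA in LacZ mice (0.440 to 0.206) and HDAC4 wt mice (0.616 to 0.246) and higher in HDAC4 3SA mice (0.603 to 1.04).

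The summed level of the 3 CCN genes was nonetheless similar in LacZ and HDAC4 3SA mice after CFA, at 14.2 and 14.3 FPKM, and 19.6 FPKM in HDAC4 wt mice. The summed level of Thbs1, Thbs2 and Thbs4 after CFA was 10.7, 18.1 and 12.7 FPKM in LacZ, HDAC4 wt and HDAC4 3SA mice.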
